A study of Mus musculus with 12 samples.

Results

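Insulin-like growth factor 1 (Igf1), the receptors Igf1r and Insr, and 6 IGF binding protein genes (Igfbp2, Igfbp3, Igfbp4, Igfbp5, Igfbp6 and Igfbp7) were followed across facial mesenchyme of the mouse embryo. These 9 genes were taken by symbol from the 53392 gene identifiers of the deposited tables, and all 9 were found. Polyadenylated RNA was sequenced in 12 libraries, in 4 groups of 3 that the submitters call biological replicates, all on the 129S4 background. One pair of groups is the mesenchyme of the secondary palatal shelf at E13.5, either Pdgfra+/+ (WT) or PdgfraPI3K/PI3K (PI3K), the latter homozygous for an allele whose receptor cannot bind PI3K. The other pair is the mesenchyme of the maxillary process at E11.5, either Srsf3fl/fl;Wnt1-Cre+/+ (control, with no Cre transgene) or Srsf3fl/fl;Wnt1-Cre+/Tg (cKO), so that both maxillary groups carry the floxed allele of Srsf3, a splicing regulator. Wnt1-Cre acts in neural crest cells and their descendants, so vessels, blood and other cells of different origin keep Srsf3. Whether a library is 1 embryo or a pool is not given in the sources used here.

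IGF1 and IGF2 are secreted growth factors that act mainly through the receptor tyrosine kinase encoded by Igf1r, while Insr encodes the insulin receptor, which can also bind IGF2 and can pair with the IGF1 receptor. Both receptors recruit insulin receptor substrates and signal through PI3K and AKT and through the MAP kinase route. The binding proteins hold the ligands in the extracellular space, some at the cell surface or in matrix, and proteases such as pappalysins cleave them and free the ligand. IGFBP7 binds IGFs weakly and is better known as a protein of vessel walls and matrix. In developing connective tissue, mesenchymal cells are a main source of both ligands and binding proteins.

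The genes lie at separate places in the genome, apart from 1 neighbouring pair. In GENCODE M21 on GRCm38, Igf1 spans chr10:87858265-87937042 on the plus strand, and the antisense gene Igf1os lies within it. Igf1r spans chr7:67952827-68233668 on the plus strand and Insr chr8:3122061-3279617 on the minus strand. Igfbp3 lies at chr11:7206086-7213923 (minus), Igfbp4 at chr11:99041244-99054392 (plus), Igfbp6 at chr15:102144362-102149511 (plus) and Igfbp7 at chr5:77349240-77408041 (minus). Igfbp2 (chr1:72824503-72852474, plus) and Igfbp5 (chr1:72857932-72874884, minus) face each other end to end, 5457 bases apart. Reads were not stated to be assigned by strand, so reads of Igf1 and Igf1os, of Igfbp7 and Polr2b, and of Insr and the short genes opposite it may not be fully separated.

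RefSeq promoter windows on GRCm38.p6 were found for 8 of the 9 genes, all but Insr. The 250 bases before the start are shown for 3 of them: the neighbours Igfbp2 and Igfbp5, whose levels set 1 maxillary library apart from its group, and Igfbp4, the most abundant binding protein in both control groups. Each is written 5′ to 3′ on its gene's own strand, and capitals mark a motif match.
Igfbp2 (chr1:72824230-72824479, plus; capitals mark GC boxes): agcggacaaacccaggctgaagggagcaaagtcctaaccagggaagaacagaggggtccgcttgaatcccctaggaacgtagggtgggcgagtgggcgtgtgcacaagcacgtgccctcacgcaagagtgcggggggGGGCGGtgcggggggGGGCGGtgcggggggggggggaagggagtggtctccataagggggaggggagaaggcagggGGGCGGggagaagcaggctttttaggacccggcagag
Igfbp5 (chr1:72874866-72875115, minus; capitals mark an AP-2 site): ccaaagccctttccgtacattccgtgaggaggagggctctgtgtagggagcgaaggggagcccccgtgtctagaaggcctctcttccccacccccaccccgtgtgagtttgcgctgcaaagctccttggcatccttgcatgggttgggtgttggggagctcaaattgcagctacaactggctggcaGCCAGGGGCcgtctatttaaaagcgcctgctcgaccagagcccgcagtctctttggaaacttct
Igfbp4 (chr11:99040994-99041243, plus; capitals mark a TATA box): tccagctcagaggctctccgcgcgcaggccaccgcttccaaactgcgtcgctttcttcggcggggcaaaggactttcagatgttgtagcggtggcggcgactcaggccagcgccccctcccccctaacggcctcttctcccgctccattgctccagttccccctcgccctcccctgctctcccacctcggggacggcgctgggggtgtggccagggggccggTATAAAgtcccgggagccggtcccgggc
The motifs searched, on both strands, were the TATA box TATAAA, the GC box GGGCGG, the AP-2 site GCCNNNGGC and a FOXO site GTAAACA. The Igfbp2 window held 3 GC boxes, at 113, 98 and 37 bases before the start, and 67.2% of its bases were G or C. The Igfbp5 window held 1 AP-2 site at 64 bases before the start, had 58.8% G or C, and its last 19 bases lie inside the GENCODE gene. The Igfbp4 window held 1 TATA box at 28 bases. The Igf1 window held 0 of these motifs, but all its 250 bases lie inside the GENCODE gene, past its annotated start. Among the 8 windows, 3 held a GC box, 2 a TATA box, 1 an AP-2 site and 0 a FOXO site. Over all 32841 windows of this length the shares were 32.7%, 12.4%, 13.7% and 3.17%. These matches describe letters only.

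Palatal libraries held 30509338 to 37406960 estimated counts and maxillary libraries 15932541 to 27887654. Marker genes of mesenchyme were present in every library (summed level 1220 to 2913 transcripts per 1000000 (TPM) over 6 genes). The palatal libraries also held ectoderm markers, at 271 to 728 TPM over 7 genes, although the ectoderm had been digested away, against 1.14 to 10.1 TPM in the maxillary libraries. Srsf3 did not go down in the libraries labelled cKO: it stood at 574 ± 25.5 counts per 1000000 scaled counts of the library (CPM) in controls and 586 ± 105 in cKO (SD, n = 3 each). The count covers the whole gene, and the reads of the floxed exon alone were not analysed here, so this value neither shows nor refutes the deletion. Pdgfra stood at 491 ± 18.6 CPM in WT and 498 ± 57.0 in PI3K palatal shelf, and the PI3K allele would not be seen in a gene count. The first library labelled cKO lay at the far end of the first principal component of the 6 maxillary libraries, at 53.3. The other cKO libraries lay at 26.0 and 9.35, and the controls at -11.3, -30.5 and -46.9, so all 6 were spread along it. Fold changes that rest on cKO library 1 are given with and without it, but counts over gene lists and marker sums are given with it only.

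Levels were compared between genes in TPM, the scale that allows for gene length. In WT palatal shelf Igfbp4 was the most abundant at 902 ± 25.5 TPM (SD, n = 3, as for all group values here), followed by Igfbp5 at 786 ± 65.0 and Igfbp3 at 278 ± 1.69. Igfbp2 followed at 244 ± 44.1 TPM and Igf1 at 87.5 ± 24.3. Igf1r stood at 48.0 ± 6.70 TPM, above Igfbp7 at 14.8 ± 2.85 and Insr at 14.0 ± 1.76, which overlapped each other. Igfbp6 was last at 1.39 ± 0.515 TPM. All other neighbours in this order were apart in every library.

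In the control maxillary process the order differed. Igfbp4 again came first at 565 ± 39.7 TPM, but Igf1 was second at 142 ± 6.11, overlapping Igfbp2 at 131 ± 24.8. Igfbp5 stood at 88.9 ± 17.9 TPM. Igf1r at 44.3 ± 8.96 and Igfbp3 at 41.9 ± 3.15 overlapped. Insr at 10.5 ± 1.23, Igfbp7 at 2.72 ± 1.49 and Igfbp6 at 0.269 ± 0.282 TPM closed the order. The proportion of the receptors was compared next. The ratio of Igf1r to Insr TPM was 3.46 ± 0.616 in WT and 3.35 ± 0.519 in PI3K palatal shelf, and 4.23 ± 0.850 in control and 3.99 ± 0.123 in cKO maxillary process, with ranges that overlapped between the genotypes of each tissue and between the control groups, but not between PI3K and cKO.

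**Figure D1:**
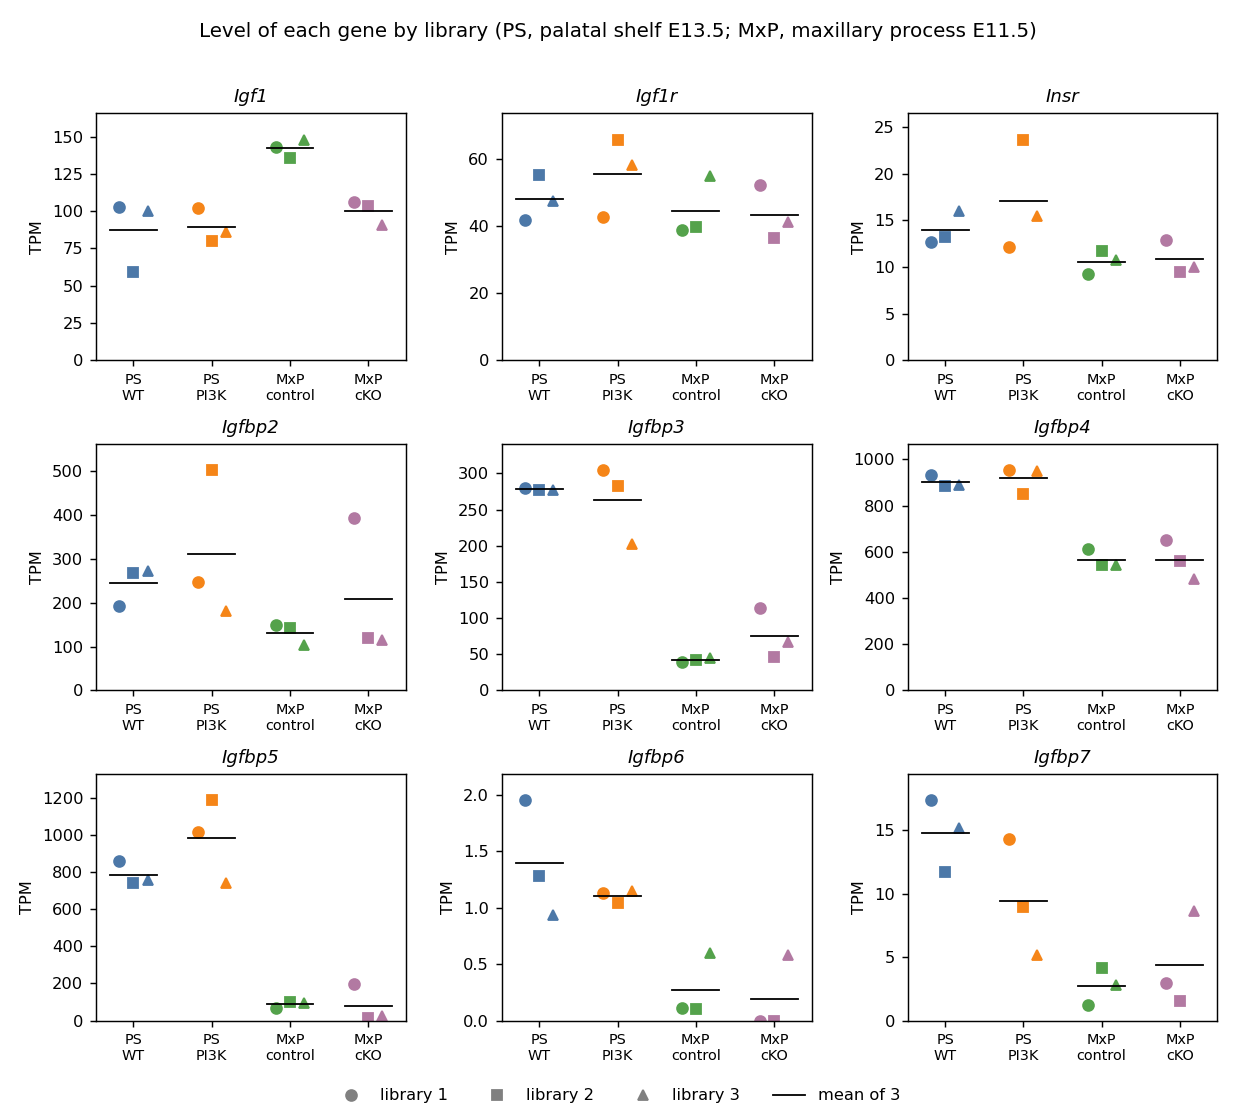
Level of each of the 9 genes in TPM (linear axes from 0, each gene on its own scale) in the 12 libraries, with the mean of 3 as a line and the library number as the marker shape. Igfbp3 and Igfbp5 stood far higher in the palatal libraries, Igf1 was highest in the maxillary controls, and cKO library 1 stood above the other cKO libraries for Igfbp2, Igfbp3 and Igfbp5.

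Loss of PI3K binding by PDGFRα was compared with WT in the palatal shelf, which asks whether the growth factor axis differs when a receptor upstream of PI3K is uncoupled from it. No gene passed a false discovery rate (FDR) of 0.05 in edgeR's quasi-likelihood test (0% of 16525 genes tested). With no adjustment 2.14% of genes had p under 0.05, and DESeq2 called 0.0145%. All 9 genes were tested, and 0 of 9 passed either threshold in edgeR or the FDR in DESeq2. In 0 of 9 did the 2 groups separate without overlap, against 6.23% of all genes. The edgeR adjusted p was 0.9997 for each of the 9.

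Igf1, the ligand, stood at 229, 129 and 204 CPM in WT and at 247, 179 and 176 in PI3K libraries. The ranges lay on top of each other, and the log2 fold change was 0.10 (95% interval -0.44 to 0.64). Igf1r stood at 269, 346 and 303 CPM in WT and 276, 405 and 361 in PI3K, a log2 difference of 0.18 (interval -0.19 to 0.56). Insr, the insulin receptor, stood at 57.6, 60.5 and 64.6 CPM in WT and 59.5, 109 and 62.6 in PI3K. Its log2 difference of 0.34 (interval -0.20 to 0.87) rested on PI3K library 2, the only one above the WT range. Differences within these intervals were not detectable with 3 libraries a group.

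Igfbp5, which binds matrix and is known in bone and muscle, stood at 2977, 2534 and 2554 CPM in WT and 3503, 4148 and 2473 in PI3K. PI3K libraries 1 and 2 lay above the WT range and library 3 below it, with a log2 fold change of 0.33 (interval -0.10 to 0.76). Igfbp2, a widely made binding protein of the embryo, stood at 129, 176 and 174 CPM in WT and 162, 337 and 116 in PI3K. PI3K library 2 was again the highest, so the log2 difference of 0.36 became -0.20 when it was left out. In that library Stc1, which encodes an inhibitor of the pappalysins, was also highest of the 6, at 36.1 CPM against 9.33 to 15.2 in the others.

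Igfbp3 stood at 369, 360 and 356 CPM in WT and 400, 375 and 256 in PI3K (log2 difference -0.07, interval -0.45 to 0.30). The 3 WT values were close together and the PI3K values spread around them. Igfbp4, the most abundant, differed by 0.04 (interval -0.16 to 0.24), the tightest interval of the 9 genes. Igfbp7 stood at 9.66, 6.44 and 8.14 CPM in WT and 7.86, 4.99 and 2.75 in PI3K, a log2 difference of -0.64 (interval -1.51 to 0.24). Its groups overlapped through PI3K library 1. Igfbp6 stood between 0.500 and 1.08 CPM in all 6 libraries. In the same libraries the summed skeletal muscle markers ran from 0.818 to 46.9 TPM in WT and from 30.9 to 191 in PI3K, and ectoderm markers from 542 to 705 and from 271 to 728; their part in these values was not tested.

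**Figure D2:**
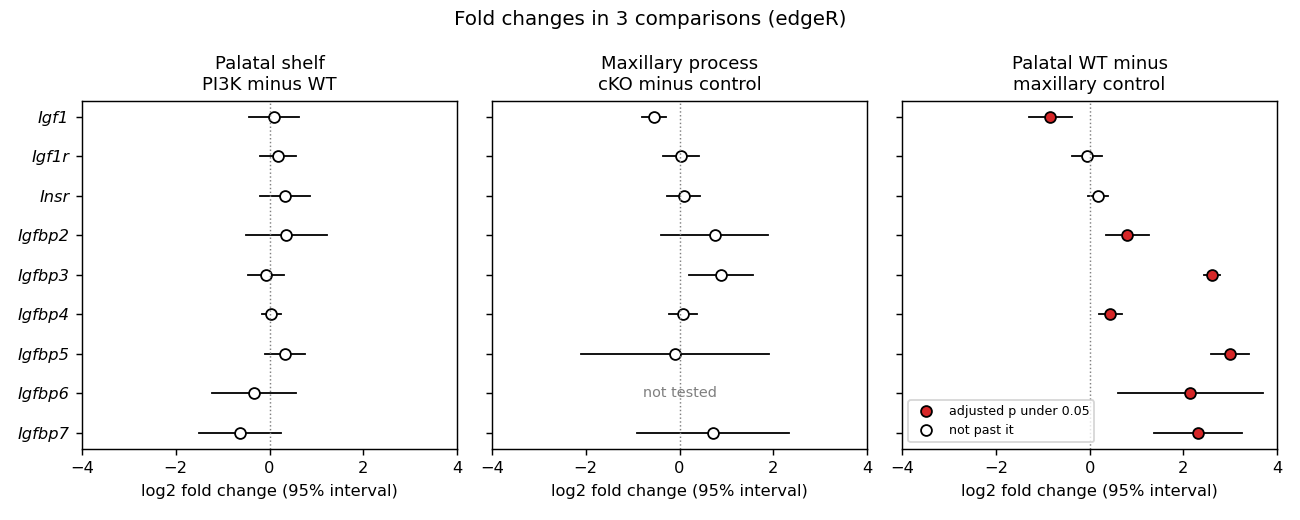
Log2 fold changes with 95% intervals from edgeR for the 9 genes in 3 comparisons, filled where the adjusted p is under 0.05. No point is filled in the palatal or maxillary genotype comparison, and 7 of 9 are filled where the control groups of the 2 tissues are compared. Of these, Igfbp6 passed the count filter only through its palatal libraries.

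In the maxillary process the libraries labelled cKO were compared with controls, which asks whether the axis differs when Srsf3 is targeted in the neural crest. The ligand Igf1 was lower in every cKO library and Igfbp3 higher in every one, but neither passed the FDR of 0.05 in edgeR, which 12 of 14254 genes did (0.0842%). Of the 9 genes, 8 were tested, since Igfbp6 was under the count filter, and 0 of 8 passed. Before adjustment 2 of 8 had p under 0.05 (12.2% of all genes), and the same pair had groups that did not overlap (18.1% of all genes). DESeq2, which called 2.41% of genes, called 2 members. In bulk tissue, fewer cells of a type and less RNA per cell cannot be told apart.

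Igf1 stood at 296, 328 and 318 CPM in controls and 234, 224 and 187 in cKO, that is 314 ± 16.3 against 215 ± 24.6. Each cKO library lay below each control. The log2 fold change was -0.54 (SE 0.11, 95% interval -0.79 to -0.30), with an adjusted p of 0.148 in edgeR. DESeq2 gave the same size, -0.54, with an adjusted p of 0.00383, while edgeR without its filter on low counts gave 0.0502. Leaving out cKO library 1 left the difference at -0.61, and over the 6 fits that each left out 1 library it ran from -0.61 to -0.45. Over all 15 alternatives the adjusted p ran from 0.00383 to 0.675.

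The other ligand gene was set beside it. Igf2, the second IGF and the more abundant of them, stood at 571, 657 and 914 CPM in controls and 1887, 946 and 1012 in cKO. Its groups did not overlap, with a log2 fold change of 0.84 (interval 0.16 to 1.53, edgeR adjusted p = 0.351, DESeq2 adjusted p = 0.0339), and 0.46 without cKO library 1. Igf1 thus made up 30.0, 25.7 and 21.9% of the summed TPM of both ligands in controls and 9.59, 17.1 and 13.9% in cKO. The cKO shares all lay below the control shares, though above the 3.43 to 4.53% of WT palatal shelf. This share was added after the values of both genes had been seen. Igf1 was lower and Igf2 higher in CPM in every cKO library, so the separation of the shares restates those values.

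The receptors did not separate by genotype. Igf1r stood at 269, 270 and 352 CPM in controls and 368, 257 and 286 in cKO, a log2 difference of 0.03 (interval -0.35 to 0.42). Insr stood at 45.4, 50.4 and 55.6 CPM in controls and 65.7, 47.2 and 48.2 in cKO, a difference of 0.09 (interval -0.27 to 0.44). For both genes cKO library 1 was the highest of all 6, and the differences turned to -0.13 and -0.08 without it.

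Igfbp3 is the main carrier of IGFs in serum and is also made by local cells, including endothelium. It stood at 52.8, 56.5 and 57.2 CPM in controls and 155, 63.7 and 88.9 in cKO, so that every cKO library exceeded every control. The log2 fold change was 0.89 (SE 0.29, interval 0.21 to 1.57), with an adjusted p of 0.327 in edgeR, against 0.0304 in DESeq2. Without cKO library 1 the difference was 0.46. In the same libraries all 8 endothelial markers were higher and not overlapping (18.1% of all genes did not overlap, in either direction), with 0 of 8 past the FDR in edgeR and 5 of 8 in DESeq2. Their sum was 170 to 180 TPM in controls and 217 to 427 TPM in cKO, highest in cKO library 1. Their part in the Igfbp3 values was not tested.

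Igfbp5 showed the widest spread of the set. It stood at 250.1, 371 and 330.3 CPM in controls, and at 745 in cKO library 1 but 57.5 and 87.1 in cKO libraries 2 and 3. One cKO library was therefore above all controls and the other 2 below all controls, the highest cKO level being 13.0 times the lowest in TPM. The log2 fold change over all 6 libraries was -0.10 (interval -2.10 to 1.91, edgeR adjusted p = 0.977). Without cKO library 1 it was -2.13 (interval -2.71 to -1.56), with an adjusted p of 0.0440 in edgeR, and without cKO library 2 or 3 it was 0.39 or 0.34. The sign of the Igfbp5 difference thus changed with the library left out, and was reversed in 3 of the 6 fits that each left out 1 library, control libraries included.

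Igfbp2, whose gene faces Igfbp5, stood at 99.2, 94.3 and 63.4 CPM in controls and 275, 80.4 and 76.5 in cKO. Only cKO library 1 left the control range, and in TPM its 393 exceeded the 194 to 271 of WT palatal shelf. The log2 difference of 0.75 (interval -0.39 to 1.89, edgeR adjusted p = 0.589) became -0.12 without that library. Igfbp4 stood at 727, 655 and 630.4 CPM in controls and 824, 671 and 613 in cKO, a difference of 0.07 (interval -0.23 to 0.37). Igfbp7 stood at 0.686, 2.38 and 1.49 CPM in controls and 1.70, 0.913 and 4.93 in cKO, with overlap, a log2 difference of 0.71 (interval -0.91 to 2.33) that became -0.22 without cKO library 3. Igfbp6 had 0 to 7 counts in each maxillary library.

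**Figure D3:**
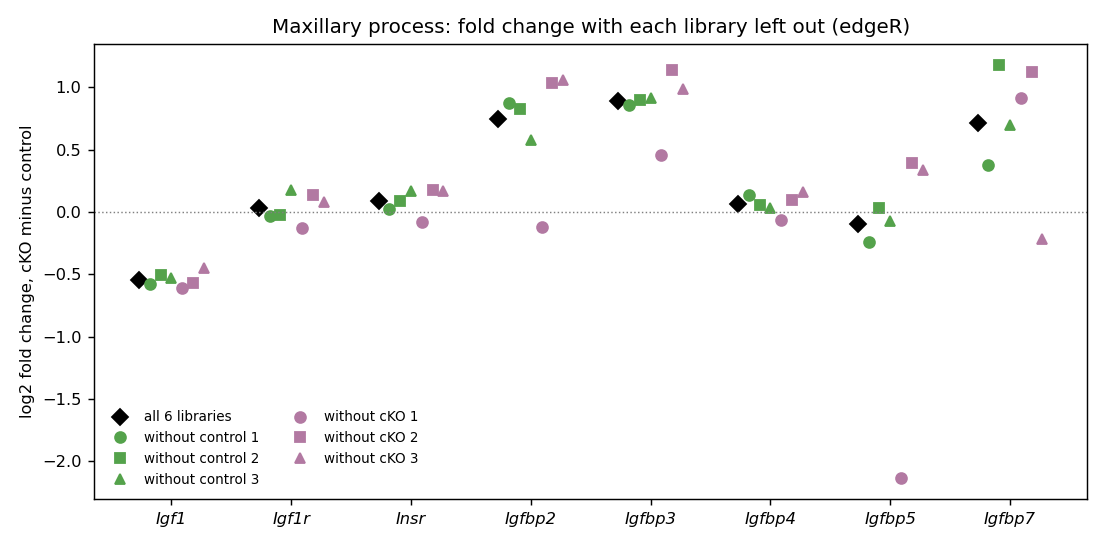
Log2 fold change of cKO against control in the maxillary process for the 8 tested genes, with all 6 libraries (black) and with each library left out in turn. Igf1 stayed between -0.61 and -0.45, while Igfbp5 ran from -2.13 to 0.39 and Igfbp2 dropped to -0.12 without cKO library 1.

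Some cell marker sums also differed between the maxillary groups and others overlapped, and their part in the results was not tested. The 6 mesenchymal markers were all lower in cKO on average, as were 7022 of all 14254 genes tested. Pdgfrb hardly differed, at 235 CPM in controls and 234 in cKO. Of the 6, 3 had p under 0.05 in edgeR before adjustment (12.2% of all genes). For 3 of the 6 the groups did not overlap (18.1% of all genes), and 0 passed the FDR. Their sum was 2202 to 2913 TPM in controls and 1220 to 2102 in cKO, lowest in cKO library 1. Periocular mesenchyme markers summed to 4.43 to 22.0 TPM in controls and 62.9 to 166 TPM in cKO. Macrophage markers, which mark cells that can make Igf1, summed to 19.3 to 22.0 TPM in controls and 22.0 to 39.8 TPM in cKO. Erythroid markers summed to 11633 to 21036 TPM and 12839 to 34250 TPM. The macrophage and erythroid sums overlapped between the groups. Ectoderm markers reached at most 10.1 TPM.

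The 2 control groups were set side by side to describe how the axis differs between the E13.5 palatal shelf and the E11.5 maxillary process. Every binding protein was higher in the palatal shelf and Igf1 was lower, while the 2 receptors did not pass. Tissue, stage, the floxed allele and the sequencing lane differ together in this comparison and cannot be told apart, and these groups also serve as the controls above. The difference was broad: 50.6% of 15752 genes passed the FDR in edgeR (27.1% higher and 23.4% lower), 57.2% had p under 0.05 before adjustment, and 62.1% did not overlap. Of the 9 genes 7 passed, Igf1 downward and the 6 binding proteins upward. Igfbp6 passed the count filter only through its palatal libraries, so 5 of 5 describes the other binding proteins. Levels here are scaled within these 6 libraries and differ slightly from those above.

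Igfbp5 rose most, from 331 ± 62.5 CPM in the maxillary control to 2624 ± 251 in WT palatal shelf, 7.94-fold. The lowest palatal library (2467 CPM) lay far above the highest maxillary one (389), and the log2 fold change was 2.99 (SE 0.17, edgeR adjusted p = 4.09e-05). Igfbp3 rose from 57.9 ± 1.76 to 353 ± 7.26 CPM, 6.10-fold (log2 2.61, SE 0.08, edgeR adjusted p = 4.25e-06), with little spread within either group. Igfbp7 rose from 1.58 ± 0.881 to 7.89 ± 1.59 CPM (log2 2.31, edgeR adjusted p = 0.00282). All 3 were past the FDR in each of the 15 alternatives.

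The other rises did not pass in every alternative. Igfbp2 rose from 89.5 ± 21.5 to 156 ± 25.9 CPM (log2 0.80, edgeR adjusted p = 0.0118), but had an adjusted p of 0.193 when all 12 libraries shared 1 estimate of spread. Igfbp4 rose from 700.3 ± 62.9 to 949 ± 47.4 CPM (log2 0.44, edgeR adjusted p = 0.0114), with 0.0645 when maxillary control 2 was left out. Igfbp6 was at 1, 1 and 7 counts in the controls and 33, 25 and 17 in WT palatal shelf (log2 2.15). It reached the count minimum of the filter in 0 control and 3 palatal libraries, so its edgeR call is no support for a rise. That call was lost in 6 of 14 alternatives.

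Igf1 moved the opposite way. It stood at 313, 343 and 325 CPM in the maxillary controls and 224, 126 and 199 in WT palatal shelf, with no overlap. It fell by 0.84 on the log2 scale (SE 0.20, interval -1.29 to -0.38), with an adjusted p of 0.00963 in edgeR, and passed in all 15 alternatives. Igf1r differed by -0.05 (interval -0.37 to 0.27) and Insr by 0.18 (interval -0.04 to 0.40, edgeR adjusted p = 0.154), so changes of the size seen for Igfbp5 lie outside both intervals. Macrophage markers were 8 of 8 higher in the palatal shelf and ectoderm markers 7 of 7, against 27.1% of all genes. Of these, 7 and 2 reached the count minimum of the filter in all libraries of both groups, and the others did so in the palatal group alone. The part of these markers in the results was not tested.

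The summed TPM of the 6 binding proteins shows what this does to the composition of their transcripts. The sum was 830.0 ± 39.2 TPM in maxillary controls and 2227 ± 52.3 in WT palatal shelf, with 934 ± 370 in cKO and 2484 ± 381 in PI3K. Igfbp4 made up 68.0 ± 2.66% of the sum in maxillary controls and 40.5 ± 0.233% in WT palatal shelf. Igfbp5 made up 10.8 ± 2.50% and 35.3 ± 2.08%, and Igfbp3 5.07 ± 0.620% and 12.5 ± 0.219%. The 3 shares did not overlap between those groups. Among the cKO libraries the sum was 1360 TPM in library 1 and 743 and 699 in the others, and the Igfbp5 share was 14.7, 2.08 and 3.40%. The PI3K shares of Igfbp5 ran from 35.6 to 41.9%, overlapping the 34.0 to 37.7% of WT.

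**Figure D4:**
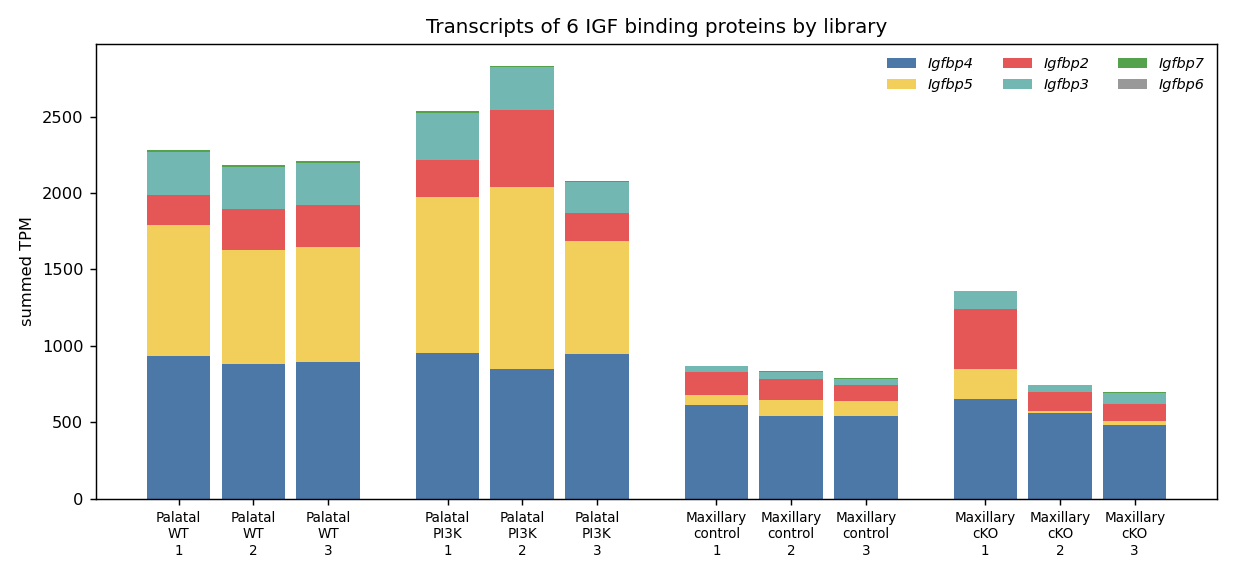
Summed TPM of the 6 binding protein genes in each of the 12 libraries, stacked by gene, on a linear axis from 0. The palatal bars reach 2079 to 2834 TPM with Igfbp5 as a large part, the maxillary bars 699 to 1360 TPM with Igfbp4 as the main part, and cKO library 1 is the tallest maxillary bar.

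The wider pathway was counted from lists written down with the members, both chosen with earlier results of these data known. The counts and the shares over all genes beside them are therefore a description. In the palatal genotype comparison 0 genes of the 6 lists passed the FDR in edgeR or DESeq2. The lists had 4, 10, 13, 17, 7 and 4 genes tested. Before adjustment 1 of these had p under 0.05, against 2.14% of all genes. It was Insrr, which encodes a receptor related to the insulin receptor (0.514 ± 0.322 CPM in WT and 1.42 ± 0.833 in PI3K). Its level was 2.38 CPM in PI3K library 3 and 0.945 and 0.927 in the other PI3K libraries. In the maxillary comparison 0 passed in edgeR, and DESeq2, which called 2.41% of all genes, called 5: Igf2, Pappa, Htra3, Ccn2 and Kazald1. Kazald1 was under the count filter of edgeR, at 0, 0 and 0.0450 CPM in controls and 2.48, 0.767 and 0.383 in cKO. Htra3 stood at 0.749, 0.348 and 0.676 CPM in controls and 7.80, 2.05 and 0.547 in cKO, with overlap. Before adjustment 4 of 10 binding protein proteases and inhibitors had p under 0.05, against 12.2% of all genes, as did 4 of 13 receptor substrates and adaptors, 2 of 2 tested other ligands and receptors, 1 of 17 genes of the PI3K branch, 1 of 6 relatives with an IGFBP-like domain and 0 of 4 of the growth hormone axis. Pappa, which encodes pappalysin-1, stood at 2.18, 1.56 and 5.63 CPM in controls and 38.1, 11.1 and 12.6 in cKO (log2 2.69, edgeR adjusted p = 0.246, and 1.90 without cKO library 1). Its groups did not overlap, and it passed in 3 of 15 alternatives, among them DESeq2 at 0.0239.

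Between the control groups 5 of these 6 lists had more genes called higher than lower in the palatal shelf by edgeR. Of the proteases and inhibitors 9 of 10 were higher in WT palatal shelf and 0 lower, against 27.1% of all genes higher. Pappa was higher by 2.76 (log2, edgeR adjusted p = 0.00158), Pappa2, the other pappalysin, by 4.31 (0.00103), and the inhibitor Stc1 by 1.86 (0.000617). All 4 genes of the growth hormone axis were higher, Ghr, the receptor, by 2.24 (0.000820). Igf2 rose from 743 ± 173 to 3779 ± 857 CPM (log2 2.35, edgeR adjusted p = 0.000321) and Igf2r, which clears IGF2, by 0.74 (0.0158, lost when WT palatal library 1 or maxillary control 1 or 2 was left out, at most 0.0644). The PI3K branch was split, with 4 of 17 higher and 4 lower. The substrates and adaptors had 6 of 13 higher and 2 lower, against 27.1% and 23.4% of all genes. Relatives with an IGFBP-like domain had 5 of 7 higher and 1 lower. Igfbpl1, Htra3, Stc2, Ccn3 and Kazald1 reached the count minimum of the filter in all 3 palatal libraries but not in all 3 controls. Without these 5 genes the proteases and inhibitors had 7 of 8 higher, the relatives 3 of 5 higher and 1 lower, and the other ligands and receptors 2 of 2 higher.

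The mix of transcripts was read from the effective length, the ratio of estimated count to TPM, which moves when longer or shorter transcripts take over. This measure matters for a splicing regulator, and Igf1 has 8 annotated coding transcripts. Over all genes limma called 0.00775% in the palatal and 0.00909% in the maxillary genotype comparison at the FDR of 0.05, and 3.90% and 5.16% had p under 0.05 before adjustment. In the palatal shelf 8 of the 9 genes had enough counts and 0 passed, with log2 shifts from -0.02 to 0.06. In the maxillary process 7 had enough counts and 0 passed, with shifts from -0.08 to 0.02. Igf1 shifted by -0.08 (interval -0.24 to 0.08) in the maxillary process and by 0.06 (interval -0.08 to 0.20) in the palatal shelf, both within the spread of the libraries. Changes between transcripts of like length would not be seen.

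Within groups, some members varied together from library to library. With each group's mean removed from the log2 CPM of the 12 libraries, Igfbp3 and Igfbp5 had a Pearson r of 0.920 (n = 12), which was 0.840 without cKO library 1. Igfbp2 and Igfbp5, the neighbouring pair, had 0.792, which dropped to 0.381 without that library. Igf1r and Insr had 0.750, and 0.679 without it. Igf1 had 0.458 with Igfbp4 and -0.514 with Igf1r, the latter -0.723 without that library. Other pairs were also stronger without it. Igfbp7 had 0.129 with Igfbp5 and 0.367 with Igfbp3, which became 0.864 and 0.806. Igf1r and Igfbp4 had -0.103, which became -0.836. These values describe 12 libraries that share preparation, and each group mean takes up 1 degree of freedom.

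Over 11430 other genes, the closest to each member other than Igfbp3 were found in the same way. Igf1 was closest to Tm9sf2 (r = 0.976) and Ube2w (0.936), Igf1r to Gpr173 (0.974) and Rictor (0.963), and Insr to Lrig3 (0.980) and Fam117b (0.979). Among the binding proteins, Igfbp2 was closest to Eef2 (0.968) and Add3 (0.961), and Igfbp4 to Cygb (0.955) and Atp2b1 (0.950). Igfbp5 was closest to Crebrf (0.974) and Ulk3 (0.974), values that dropped to 0.793 and 0.790 without cKO library 1. Igfbp6 was closest to Ttc17 (0.965) and Zfp964 (0.932), and Igfbp7 to Galnt2 (0.900) and Fam45a (0.876). The highest of so many values from 12 libraries is high by selection, so these names are a description.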

How the data were processed

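Palatal shelf and maxillary process were dissected, the ectoderm was removed with trypsin, and polyadenylated RNA was sequenced, per the labels' protocols. The authors deposited 2 tables per tissue, estimated counts per gene and TPM, and STAR 2.7.0, Salmon 1.1.0 and DESeq2 1.28.1 with build mm10 are named in the submitters' processing notes. Of 53392 identifiers, 53355 matched GENCODE M21 without their version. Estimated counts were rounded and tested with edgeR 4.0.16 (R 4.3.3; TMM, filterByExpr, quasi-likelihood F-test, Benjamini-Hochberg over all genes tested). Standard errors were derived from the F statistic. Effective lengths (count over TPM, centred per library, at least 50 counts in all 6 libraries) were tested with limma 3.58.1. DESeq2 1.42.0 and limma on log2(TPM + 1 or 0.1) were alternatives, as were other scalings and filters, 1 fit of all 12 libraries, and leaving out each library. TPM was scaled by the authors per library, so levels across tissues compare separate tables. The edgeR and limma fits were tested on simulated data. All 9 members are named, with pathway and marker genes from written lists and the 2 closest genes (mean of at least 5 CPM), which are not reported here for Igfbp3. Members and lists were chosen with earlier results of these data known. Same-numbered libraries did not deviate together throughout, so replicate numbers were not used as pairs. P-values set group differences against the spread between these libraries, and whether that is spread between embryos or between pools is not given.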

Additional observations from a re-analysis of the deposited data

How the results depend on the processing

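Depth limits Igfbp6 most, with 0 to 7 counts in a maxillary library, and 3 libraries a group limit the rest. Of the fold changes reported for members and 6 pathway genes, 216 of 224 alternatives in the palatal shelf, 188 of 210 in the maxillary process and 208 of 224 between control groups kept their direction and their side of the threshold. The causes of the changes below were not tested. In the palatal shelf DESeq2 called 4 genes in place of 0. Leaving out 1 library turned Igf1 (-0.10 to 0.28), Igfbp2 (-0.20 to 0.66), Igfbp3 (-0.18 to 0.11), Igfbp4 (-0.0053 to 0.092), Igfbp6 (-0.55 to 0.012), Igf2 (-0.014 to 0.32) and Stc1 (-0.32 to 0.90). In the maxillary process the count of 12 genes was 143 without the filter on low counts, 382 with DESeq2, 105 with all 12 libraries in 1 fit, and 2 to 29 with 1 library left out (29 without cKO library 1, 2 without control 2). DESeq2 called 2 members, and leaving out 1 library gave 0 to 1. Leaving out 1 library turned Igf1r (-0.13 to 0.18), Insr (-0.081 to 0.17), Igfbp2 (-0.12 to 1.05), Igfbp4 (-0.063 to 0.16), Igfbp5 (-2.13 to 0.39), Igfbp7 (-0.22 to 1.18) and Ghr (-0.63 to 0.039). On log2(TPM + 1) and log2(TPM + 0.1), Igf1r was -0.034 and -0.035 and Igfbp4 -0.0086 and -0.0087. Between control groups Igf1r was 0.0094 with upper-quartile scaling, 0.12 on both TPM scales and -0.14 to 0.053 with 1 library left out. The TPM scale moved the median over all genes from 0.03 to 0.16, and the share of calls that were higher from 53.7% to 69.0%. For effective length, 1 gene was called in each tissue: with 1 library left out the count was 0 to 1 in the palatal shelf and 0 to 5 in the maxillary process, and 2 with a count minimum of 20 in the latter.

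Same-numbered libraries correlated at 0.481, 0.227 and -0.210 in the palatal shelf and at 0.0945, 0.112 and 0.165 in the maxillary process. Between control groups they correlated at -0.122, 0.0562 and -0.0450. The labels give them a shared number and no stated pairing. Every maxillary library correlated best with its own number, a hint from the data and not from the design, but not every palatal library did. With a replicate block 40 genes were called in the maxillary process, 0 in the palatal shelf and 6835 between control groups, and 0 for effective length in either tissue. The edgeR call of Igfbp6 between control groups was lost with the replicate block.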
